A study of Drosophila melanogaster with 4 samples.

Results

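Arc1 and Arc2 are neighbouring Drosophila melanogaster genes whose proteins descend from the Gag protein of a Ty3/gypsy-type retrotransposon. They are 2 of the 14775 genes that could be named in RNA from adult ovaries, and each was represented by 1 RefSeq transcript (NM_137111 for Arc1 and NM_137112 for Arc2). The pair was chosen from these same libraries because both genes were lower in ovaries with an embryonic knockdown of piwi while retrotransposons were higher. Their difference between the groups is therefore a description and carries no test.

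Gag is the structural protein of a retroelement and assembles into a shell around the element's RNA. Fly Arc1 protein still forms such capsids, which carry Arc1 mRNA in extracellular vesicles from motor neurons to muscle. Arc1 is also known for a part in lipid metabolism and in behaviour under starvation. Piwi is the nuclear Argonaute protein that small piRNAs guide to transposons, whose transcription it silences.

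Ovaries of flies with the embryonic knockdown of piwi (piwi-embKD, 2 libraries) were compared with ovaries of flies whose hairpin targeted white (white-embKD, 2 libraries). The white gene encodes a pigment transporter of the eye. Control flies had the genotype vasa-GAL80[ts]/+;;da-GAL4/shwhite and knockdown flies vasa-GAL80[ts]/+;;da-GAL4/shpiwi, so all 4 libraries shared the GAL4 driver and the temperature-sensitive GAL80 repressor of GAL4. The driver follows daughterless (da), a broadly expressed gene, and the repressor follows vasa, a germline gene. Stocks lived at 18 °C, and embryos of both groups were placed at 28 °C to start RNA interference. The sources used here give neither the age of the flies nor the number pooled per library. Fly line and knockdown cannot be told apart, because the hairpins sit in separate lines.

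Levels are normalized effective counts, the authors' estimate of fragments per transcript after scaling. Depth was about 20000000 and 19300000 effective counts for white-embKD replicates 1 and 2, and 16200000 and 16400000 for piwi-embKD replicates 1 and 2. It was read from the smallest step between values, which was assumed to be 1e-06 of a count. The hairpin's target piwi stood at 410.0, 401, 238 and 121 in the same order of libraries. Its log2 difference was −1.25 ± 0.29 (SE) and did not pass over all features (limma adjusted p = 0.0572), but it did with the stricter filter on low values (limma adjusted p = 0.0435) and with a replicate block (0.0009). Leaving out piwi-embKD replicate 1 gave −1.74 (limma adjusted p = 7.14e-05), and leaving out replicate 2 gave −0.77 (0.00178). The target of the control hairpin, w, was near the bottom of the range, at 1.35 and 1.19 in the white-embKD libraries and 3.34 and 2.87 in the piwi-embKD libraries (log2 difference 0.86, limma adjusted p = 0.103). The ovary label was borne out by osk, a germline mRNA, which ran from 2137 to 2914 over the 4 libraries. Yp2, a yolk protein mRNA listed here with follicle cell genes, ran from 622 to 1453.

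Arc1 was the abundant member. White-embKD replicates 1 and 2 held 336 and 349.7, and piwi-embKD replicates 1 and 2 held 178 and 118. Both piwi-embKD libraries lay below both white-embKD libraries, and the lower control was 1.89-fold above the higher knockdown library. The group means were 343 ± 9.47 and 148 ± 42.8 (SD, n = 2 each), a 2.32-fold difference. Among all 14775 genes Arc1 ranked 533 and 494 by level in the controls, and 1174 and 2057 in the knockdown libraries. In bulk RNA such as this, fewer cells that make a transcript and less of it per cell cannot be told apart.

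The spread of Arc1 lay almost wholly within the knockdown group. Its level was 52.0% of the control mean in piwi-embKD replicate 1 and 34.4% in replicate 2, and the SD on the log2 scale was 0.42 in that group against 0.04 in the controls. The value of each library rested on 6808, 6946, 2839 and 1929 effective counts. The 95% exact Poisson intervals, which cover counting error only, ran from 328 to 344 and from 342 to 358 in the controls and overlapped. Those of the piwi-embKD libraries, 172 to 185 and 113 to 123, overlapped neither each other nor the controls.

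Arc2 was rare and differed between the groups by a similar factor. It stood at 6.08 and 8.09 in the white-embKD libraries and at 3.08 and 2.70 in the piwi-embKD libraries. The groups did not overlap here either, with a gap of 1.97-fold between the nearest libraries of each. The means were 7.08 ± 1.42 and 2.89 ± 0.27 (SD, n = 2 each), a 2.45-fold difference. These levels came from 123, 161, 49 and 44 effective counts, far above the 3 counts taken as the floor. The Poisson intervals of the controls, 5.05 to 7.25 and 6.90 to 9.46, overlapped, as did those of the knockdown libraries, 2.28 to 4.07 and 1.95 to 3.61. The rank of Arc2 by level among the 14775 genes was 6703 and 6524 in the controls and 7230 and 7206 in the knockdown libraries.

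**Figure D1:**
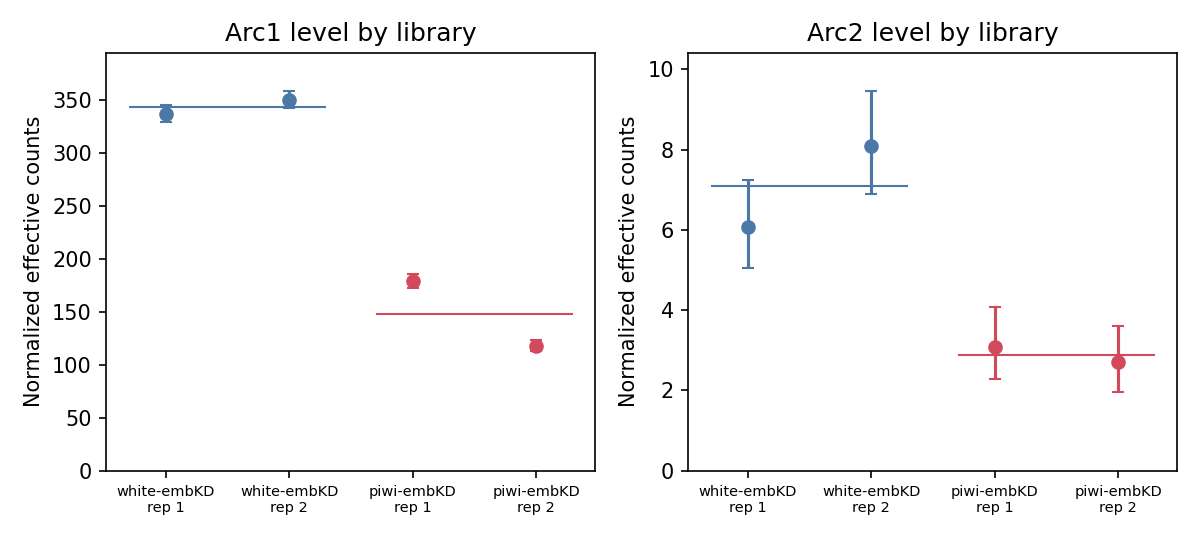
Levels of Arc1 (left) and Arc2 (right) in normalized effective counts for each of the 4 libraries. Points are libraries, bars are 95% exact Poisson intervals for counting error only, and lines are group means. Arc1 sits at 336 and 349.7 in the controls against 178 and 118, and Arc2 at 6.08 and 8.09 against 3.08 and 2.70.

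On the log2 scale with a pseudocount of 0.995, the piwi-embKD minus white-embKD difference was −1.24 for Arc1 and −1.05 for Arc2. Of 8172 features tested, 72 (0.881%) were at or below the value of Arc1 and 101 (1.24%) at or below that of Arc2, each gene included. A log2 difference of −1 or lower was held by 108 features (1.32%). Groups that do not overlap with piwi-embKD lower, as in both members, were found for 2702 features (33.1%), and with piwi-embKD higher for 2120 (25.9%). Since the members were picked for this contrast, nothing is read from their place in it.

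**Figure D2:**
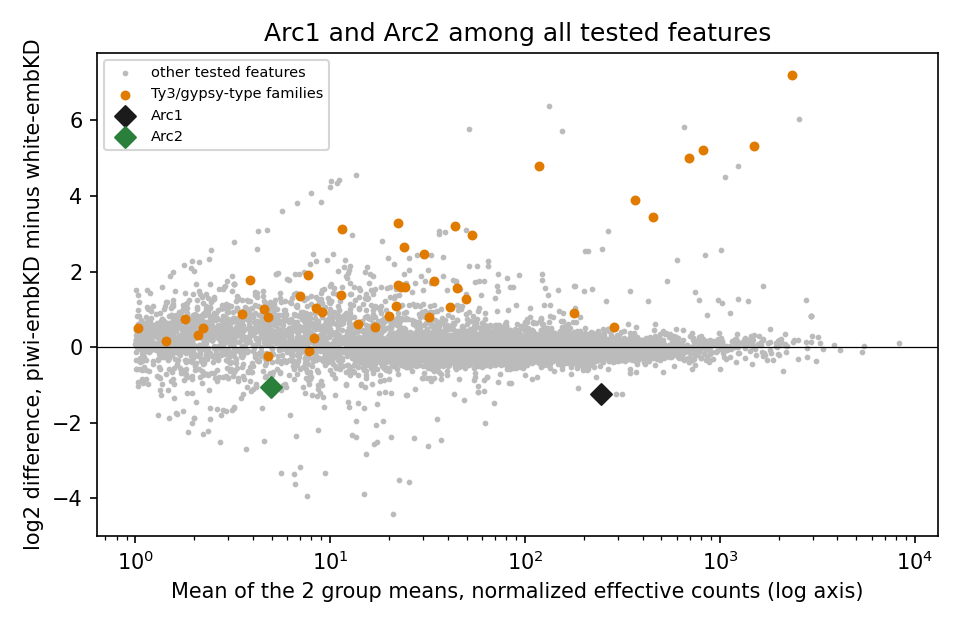
The log2 difference (piwi-embKD minus white-embKD) of each of the 8172 tested features against its mean level on a log axis. Arc1 is marked at −1.24 and Arc2 at −1.05, the values they were chosen for, and most Ty3/gypsy-type families (orange) lie above 0.

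The levels of the members can be compared with each other only per length. In the Ensembl annotation of assembly BDGP6, Arc1 has 1 exon of 2371 nt, with 762 nt of coding sequence for 254 residues and a 3′ untranslated region of 1509 nt. Arc2 also has 1 exon, of 902 nt, with 579 nt of coding sequence for 193 residues and a 3′ untranslated region of 204 nt. Per kilobase of these transcripts, the level of Arc1 was 142 and 148 in the controls and 75.2 and 49.7 in the knockdown libraries. The level of Arc2 per kilobase was 6.74 and 8.97 in the controls and 3.41 and 2.99 in the knockdown libraries.

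The ratio of the members did not separate the groups. Arc1 exceeded Arc2 per kilobase by 21.1-fold and 16.4-fold in white-embKD replicates 1 and 2 and by 22.0-fold and 16.6-fold in piwi-embKD replicates 1 and 2. The range within either group was thus wider than the distance between them. The deposited values come from a model that shares out fragments fitting several transcripts. Whether fragments of one member were credited to the other was not tested.

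Arc1 and Arc2 lie on chromosome arm 2R on opposite strands, Arc1 on the minus and Arc2 on the plus strand, with their 5′ ends facing each other. A single annotated locus, the pseudogene CR10102, sits between them and has no row in the tables used here. The genes on either side were examined because the choice of the pair did not use them, 5 on each side in the order of the RefSeq table. Of these 10 genes, 6 were abundant enough to test, and none passed (limma, adjusted over all features), with 1 at an unadjusted p under 0.05. Over all 8172 features 547 (6.69%) passed, of which 135 were lower (1.65% of the features) and the rest higher (5.04%). An unadjusted p under 0.05 was held by 2041 of the 8170 features other than the members (24.98%). The median log2 difference of the 6 was −0.06, against −0.04 for all features tested.

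The gene next to Arc1, CG8617, stood at 50.1 and 50.9 in the controls and at 45.2 and 37.9 in the knockdown libraries. Its groups did not overlap, but the log2 difference was −0.28 ± 0.12 (SE) and did not pass (limma adjusted p = 0.222). The gene beyond it, CG8613, stood at 72.7 and 71.3 against 63.8 and 59.9 (log2 difference −0.22, limma adjusted p = 0.231). On the far side of Arc2, Tfb1, which encodes a subunit of the general transcription factor TFIIH, stood at 107 and 105 against 118 and 109 (log2 difference 0.09, limma adjusted p = 0.563). These nearest genes thus had log2 differences between −0.28 and 0.09, beside −1.24 and −1.05 for the pair.

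Of the remaining flanking genes, tej encodes the Tudor-domain protein Tejas of the germline piRNA pathway. It stood at 96.3 and 88.04 in the controls and at 89.9 and 66.0 in the knockdown libraries, which overlapped (log2 difference −0.25, limma adjusted p = 0.358). Shrm, the fly shroom gene of the actin cytoskeleton, stood at 4.55 and 3.64 against 7.80 and 7.24 (log2 difference 0.75 ± 0.20 SE, limma adjusted p = 0.0816). Ih, an ion channel gene, stood at 2.52 and 3.26 against 3.83 and 3.89 (log2 difference 0.33, limma adjusted p = 0.399). The genes CG34184, CG34442, CG34443 and CG34444 beyond Tfb1 were listed at 0 in all 4 libraries. Without piwi-embKD replicate 1 the log2 difference was −0.40 for CG8617, −0.47 for tej and 0.70 for Shrm. Without piwi-embKD replicate 2 it was 0.795 for Shrm. Calls among the 6 appeared in these fits, in which calls over all features were also more numerous. Shrm passed without the trend (limma adjusted p = 0.0453), a setting in which 552 features passed.

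**Figure D3:**
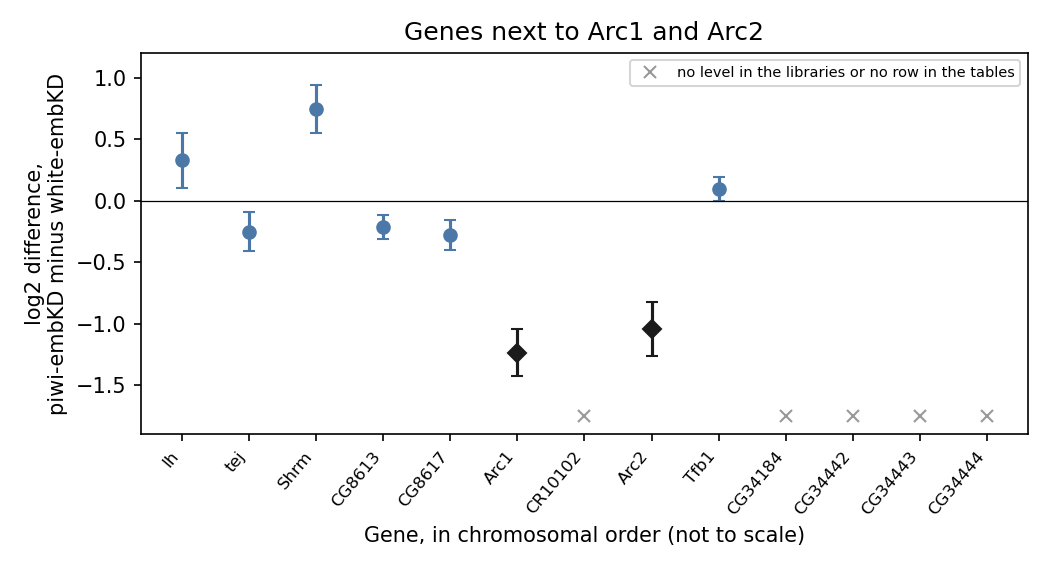
The log2 difference (piwi-embKD minus white-embKD, bars ± SE) of Arc1, Arc2 and their neighbours in chromosomal order, not to scale. Arc1 (−1.24) and Arc2 (−1.05, black) lie below all 6 tested neighbours, which range from −0.28 for CG8617 to 0.75 for Shrm. Crosses mark a locus with no row or genes listed at 0.

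A pair of other host genes of retroelement descent was measured. Iris, which descends from an envelope gene of an insect retrovirus, stood at 19.4 and 20.6 in the controls and at 28.0 and 25.3 in the knockdown libraries. Both piwi-embKD libraries were the higher ones, and the log2 difference of 0.39 ± 0.13 (SE) did not pass (limma adjusted p = 0.126). Gagr, named for its likeness to gypsy Gag, stood at 0.17, 0.12, 0 and 0.21. These values lay around the floor of 0.148 to 0.188 that a count of 3 sets, so no fold is given and the profile of Gagr cannot be judged.

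The retroelements to which the Arc proteins are related were higher, which is part of why the pair was chosen and is not tested. Of 50 measured families known as Ty3/gypsy-type, 43 were higher in both piwi-embKD libraries than in both white-embKD libraries. Of the 44 that passed the filter on low values, 40 were so, beside 25.9% of all tested features. The summed level of the 50 was 989.6 and 940.1 in the controls and 12212 and 15261 in the knockdown libraries. Over the 44 families that passed the filter on low values, the median log2 difference was 1.32. The largest differences were those of mdg3 (7.21), blood (5.32) and Burdock (5.21). The family mdg3 went from 30.2 and 30.5 to 4408 and 4854. At the other end, gypsy3 stood at 5.41 and 5.03 against 5.51 and 3.29 (−0.23), gypsy10 at 8.85 and 7.29 against 8.06 and 6.73 (−0.11) and gypsy11 at 0.91 and 1.66 against 1.08 and 2.09 (0.17). No tested Ty3/gypsy-type family had a difference as low as either Arc gene.

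The transcripts most like each member were sought over the 4 libraries, by the root-mean-square difference of log2 levels centred on the control mean. With 4 libraries and a contrast that the members were chosen for, this is a description of likeness and carries no test. The nearest profile to Arc1 was that of PlexB, a semaphorin receptor gene, at 435 and 434 in the controls and 232 and 147 in the knockdown libraries, a distance of 0.03. It was followed by the chitinase gene Cht2 (0.03), the glycosyltransferase gene Ugt35A1 (0.04), the serine protease gene Sp7 (0.05) and Obp99a, of the odorant-binding protein family (0.08). Each was lower in piwi-embKD replicate 2 than in replicate 1, as Arc1 was, which their choice as nearest profiles had fixed.

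The piwi transcript itself ranked 8th in likeness to Arc1, at a distance of 0.14. The ratio of the level of Arc1 to that of piwi was 0.82 and 0.87 in the controls and 0.75 and 0.97 in the knockdown libraries, without a separation of the groups. Arc2 ranked 29th in likeness to Arc1 (0.24).

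The nearest profile to Arc2 was that of CG11155, at 9.11 and 11.2 in the controls and 4.89 and 3.92 in the knockdown libraries, a distance of 0.05. Next came Cadps (0.10), known for the release of dense-core vesicles, JMJD5 (0.12), a gene of the jumonji family, CG1827 (0.14) and Idgf2 (0.15), a chitinase-like growth factor gene. Arc1 ranked 45th in likeness to Arc2 and piwi 117th. No gene was among the 5 nearest of both members.

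**Figure D4:**
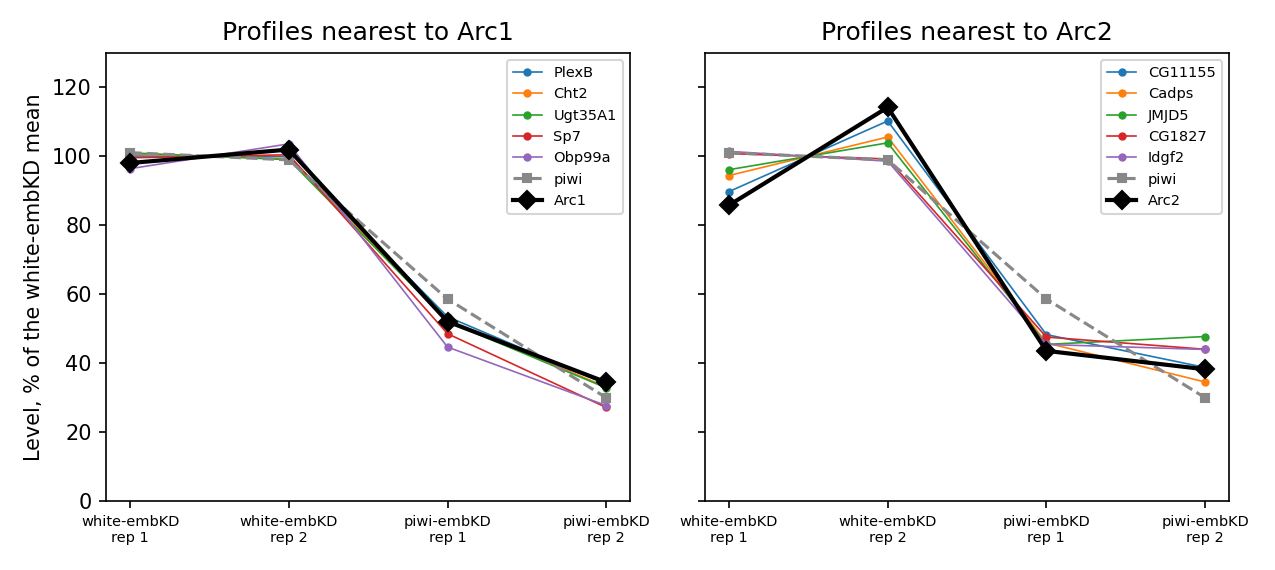
Levels as a percentage of the white-embKD mean in the 4 libraries for Arc1 (left) and Arc2 (right, both black), the 5 genes with the nearest profiles and piwi (dashed). Arc1 stands at 52.0% and 34.4% in piwi-embKD replicates 1 and 2, with piwi at 58.5% and 29.9%, and Arc2 at 43.5% and 38.1%.

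Genes tied to what Arc1 is known for showed no common direction. Of 14 genes for extracellular vesicles and the ESCRT machinery that buds them, all were tested and none passed in limma (1 at an unadjusted p under 0.05, beside 24.98% of all features), with a median log2 difference of −0.04, the same as for all features. The most abundant, Rab11, a GTPase gene of recycling endosomes, stood at 352 and 383 in the controls and 350.5 and 316 in the knockdown libraries. The adaptor gene ALiX was at 114 and 118 against 135 and 132, and wls, which encodes the Wnt carrier of vesicles, at 136 and 133 against 114 and 109.6 (log2 difference −0.26, limma adjusted p = 0.149). Without piwi-embKD replicate 1, the log2 difference of wls was −0.29, and a call appeared, as more did over all features.

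Arc is an activity-regulated gene in neurons, and of 10 genes known as activity-regulated or as their transcription factors, 5 were tested. One rose, CrebA, a factor for secretory genes, from 12.7 and 10.7 to 29.3 and 31.8 (log2 difference 1.31, limma adjusted p = 0.00498), a call lost with no filter on low values (0.0708). Hr38 and sr, defining activity-regulated genes of fly neurons, were near or under the floor, with Hr38 listed at 0 in 3 of the 4 libraries. The median of the 5 was 0.02, and the 1 that rose stands beside 5.04% of all features.

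Of 18 genes of fasting and lipid metabolism, 15 were tested, with a median log2 difference of 0.16, and 3 passed in limma, beside 6.69% of all features. Of the 3, 2 rose, beside 5.04% of all features, and 1 fell, beside 1.65%. An unadjusted limma p under 0.05 was held by 6 of the 15, 5 higher and 1 lower, beside 24.98% of all features. The fall was that of tobi, a glucosidase gene that responds to diet, from 11.7 and 11.8 to 1.95 and 1.12 (log2 difference −2.35, limma adjusted p = 0.00351), lost with no filter (0.0667). FASN1, the fatty acid synthase gene, rose from 86.1 and 82.5 to 179 and 187 (log2 difference 1.11, limma adjusted p = 0.00165). ImpL2, which encodes a secreted antagonist of insulin-like peptides, rose from 9.85 and 9.83 to 23.4 and 21.5 (log2 difference 1.11, limma adjusted p = 0.00783), but did not pass without white-embKD replicate 2 (0.0535) or with no filter (0.0817). The number that passed was higher with either piwi-embKD library left out, as it was over all features.

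Arc1 is also made outside the ovary, so markers of other tissues were read beside it. Digestive enzyme genes of the gut were nearly absent from piwi-embKD replicate 2 and varied in replicate 1. Of 16 measured, 15 were tested, and in limma 5 fell, beside 1.65% of all features, and none rose. The median log2 difference was −2.55. The most abundant were not among the 5. alphaTry, a trypsin gene, stood at 44.1 and 44.4 in the controls against 12.2 and 0.099 (limma adjusted p = 0.103), and betaTry at 43.0 and 36.9 against 9.45 and 0.22 (0.0764). The protease gene Jon99Cii stood at 42.6 and 43.2 against 40.6 and 0.226 (limma adjusted p = 0.308), so that only replicate 2 was far below the controls. Jon25Biii (16.9 and 12.6 against 46.4) and Amy-d (9.89 and 12.1 against 20.1) were higher in piwi-embKD replicate 1 than in both controls and at 0 and 0.177 in replicate 2. Among the 5 that fell, LysD, a lysozyme gene, fell from 31.5 and 25.3 to 2.52 and 0.13 (log2 difference −3.88, limma adjusted p = 0.00931), and the protease gene Jon25Bii from 13.5 and 11.9 to 0.69 and 0.08 (−3.34, limma adjusted p = 0.00195). With no filter on low values neither passed (limma adjusted p = 0.112 and 0.0535). Summed over the 16, the level was 317 and 291 in the controls, 198 in piwi-embKD replicate 1 and 1.35 in replicate 2. As shares of the control mean, the gut sum was 65.1% and 0.443% in piwi-embKD replicates 1 and 2, where Arc1 was 52.0% and 34.4% and Arc2 43.5% and 38.1%. The part of gut RNA in the difference of Arc1 and Arc2 was not tested. More gut genes passed with either piwi-embKD library left out, as did more of all features.

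Markers of the enteroendocrine cells of the gut, which make peptide hormones, were all below the filter. Their sum over 9 genes was 2.80 and 2.39 in the controls and 2.99 and 0.95 in the knockdown libraries, and Dh31 was listed at 0 in all 4.

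Nerve markers were uneven. Of 14 measured, 4 were tested and 1 passed in limma, beside 6.69% of all features, and 6 lay under the floor in every library. elav, a defining neuronal gene, was well above the floor, at 4.84 and 4.30 in the controls and 6.81 and 5.05 in the knockdown libraries (log2 difference 0.30, limma adjusted p = 0.413). The cytoskeletal gene futsch stood at 0.81 and 1.17 against 2.94 and 1.25 (limma adjusted p = 0.346), and cpx, which encodes complexin, at 1.3 and 0.53 against 1.95 and 1.7 (0.299). ChAT was listed at 0 throughout, and nSyb, Syt1 and brp, which encode synaptic proteins, reached at most 0.254. The call was that of Syt4, which encodes a synaptotagmin that neurons pass to muscle in vesicles, at 12.8 and 13.3 in the controls against 0.29 and 0 (limma adjusted p = 0.000817). The sum over the list was 20.7 and 20.2 in the controls and 14.9 and 10.3 in the knockdown libraries. With Syt4 taken out after its value was seen, the sum of the other 13 was 7.86 and 6.96 against 14.6 and 10.3. This remaining sum was higher in both knockdown libraries than in both controls.

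Fat body markers gave no call. Of 12 measured, 4 were tested and none passed in limma (2 at an unadjusted p under 0.05, both higher, beside 24.98% of all features), with sums of 152 and 144 in the controls and 190 and 153 in the knockdown libraries. The lipophorin gene apolpp supplied most of this, at 138 and 133 against 168 and 134, while Fbp2 and Lsp1alpha were listed at 0. Without piwi-embKD replicate 2, the log2 difference of apolpp was 0.31, and calls appeared, as more did over all features.

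Follicle cell and muscle genes went the opposite way to the members. Of 11 follicle cell genes, 10 were tested and 6 rose in limma, beside 5.04% of all features. The median log2 difference was 0.83, and the sum of the 11 went from 1437 and 1394 to 3235 and 3269. The yolk protein genes led and supplied most of this sum, with Yp1 rising from 471.5 and 446.7 to 1107 and 1094 (log2 difference 1.26, limma adjusted p = 0.00127). Of 13 muscle genes, 11 were tested and 4 rose, beside the same 5.04%, with a median of 0.62 and sums of 192 and 183 against 337 and 264. The myosin heavy chain gene Mhc rose from 16.0 and 14.4 to 31.2 and 27.5 (log2 difference 0.91, limma adjusted p = 0.0157). No muscle gene passed without white-embKD replicate 1 or without replicate 2, and follicle calls fell to 3 in each case. Muscle and follicle calls were more numerous with either piwi-embKD library left out, as calls over all features were.

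None of the 10 tested germline genes passed in limma (5 at an unadjusted p under 0.05, 4 lower and 1 higher, beside 24.98% of all features). The median log2 difference was −0.09, and the sums were 5564 and 5237 against 4593 and 4983. The largest part of the sum was osk, at 2914 and 2670 against 2137 and 2341 (log2 difference −0.32, limma adjusted p = 0.165). The gene otu went the other way, at 451 and 411 against 535 and 567 (log2 difference 0.35, limma adjusted p = 0.0948). Germline calls appeared with either piwi-embKD library left out, when calls over all features were also more numerous. Of 9 blood cell markers 3 were tested and none passed in limma (3 at an unadjusted p under 0.05, 2 higher and 1 lower, beside 24.98% of all features). The sums were 388 and 399 against 355 and 343. Below the filter on low values were Hml, at 0.71 and 0.81 against 0.74 and 0.65, and eater, at 0.19 and 0.07 against 0.16 and 0.08. He was listed at 0 throughout. Blood cell calls also appeared with either piwi-embKD library left out. The scavenger receptor gene crq supplied most of the sum and was the lower one, at 369 and 379 against 320 and 288 (limma adjusted p = 0.126). The other tested markers were higher. srp stood at 14.7 and 16.3 against 25.2 and 49.6 (limma adjusted p = 0.0799), and Ppn at 2.91 and 2.11 against 7.40 and 3.66 (0.182). Of 7 spermatheca and oviduct markers 3 were tested and none passed in limma (2 at an unadjusted p under 0.05, 1 higher and 1 lower, beside 24.98% of all features). The sums were 145 and 144 against 124 and 140.3. A call appeared here too with either piwi-embKD library left out. The nuclear receptor gene Hr39 led that list and supplied most of its sum. It stood at 122 in both controls against 93.8 and 105 (limma adjusted p = 0.147). Without piwi-embKD replicate 2, the log2 difference of Hr39 was −0.37. The other tested markers of that list, Oamb and Bbd, were higher in both knockdown libraries than in both controls. Oamb stood at 19.0 and 18.9 against 23.4 and 28.7 (limma adjusted p = 0.137). Bbd had a log2 difference of 0.37 (limma adjusted p = 0.303). The part of these shifts in the difference of the Arc genes was not tested.

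**Figure D5:**
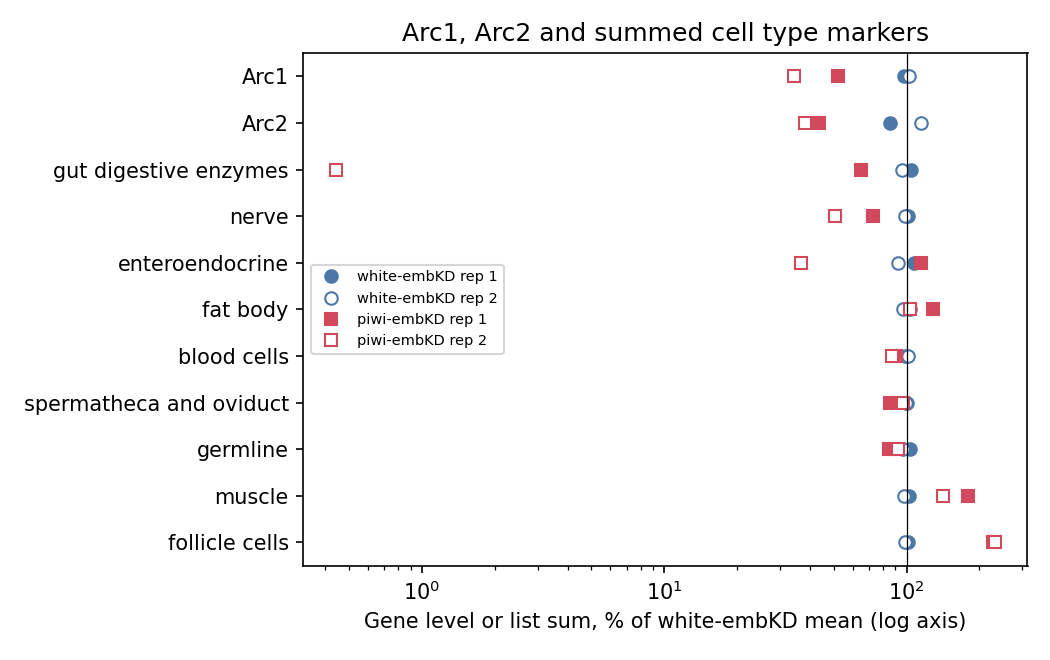
Levels of Arc1 and Arc2 and levels summed over each marker list, as a percentage of the white-embKD mean on a log axis, for the 4 libraries. Gut digestive enzymes stand at 65.1% and 0.443% in piwi-embKD replicates 1 and 2, Arc1 at 52.0% and 34.4%, and follicle cell markers at 229% and 231%. Nerve markers stand at 72.7% and 50.6%. With Syt4 taken out after its value was seen, the sum of the other 13 was higher in both knockdown libraries than in both controls. The largest part of the germline sum is osk. Most of the follicle cell sum comes from yolk protein genes, and of the fat body sum from apolpp. Most of the blood cell sum comes from crq, and of the spermatheca and oviduct sum from Hr39. Both crq and Hr39 were lower in the knockdown libraries, while the other tested markers of their lists were higher.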

How the data were processed

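Total RNA from ovaries was depleted of ribosomal RNA (4 µg per library) and sequenced as paired reads of 150 nt, per the labels' protocols. Per the file headers and names, the authors deposited a signal value for each of 29637 targets, the effective count estimated by eXpress times a normalization factor. The submitters' processing notes list Bowtie2, STAR, Cufflinks and dm3 without saying what each did. How the factor was set, any filter and the strand setting were not given in the sources used here, so values of overlapping genes are uncertain.

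RefSeq accessions were matched to symbols with a table of Release 6, which named 28233 of 29511 transcripts (95.7%), and values were summed per gene. Unmatched transcripts (1278, between 1.13% and 1.67% of a library) kept their own rows. The build differs from that of the authors, so no coordinate is given. limma 3.58.1 (R 4.3.3, intensity trend) compared log2(value + 0.995) between groups for the 8172 features with a mean of at least 0.995 (7779 genes, 107 transposon families, 286 unmatched transcripts). Two-sided p-values were adjusted over all features (Benjamini-Hochberg), with a threshold of 0.05. Depth, Poisson intervals and the floor of 3 counts cover counting error only. Alternatives changed the scaling, pseudocount, filter, trend, summing, block and libraries used. Fold changes on this scale understate those of low genes. The script was tested on simulated data. The labels call the replicates independent.

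Genes named are the members, the hairpin target, the neighbours, the 5 nearest profiles of each member, and from each list some of the 3 most abundant and the 3 most changed of those called. Other markers named (such as Jon25Biii, Amy-d, cpx and the genes near 0) were picked after their values were seen. The members and lists were chosen with earlier results of these data known. The planned comparison of the Arc1 and Arc2 proteins was not run. One germline gene of the 12 listed had no row.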

Additional observations from a re-analysis of the deposited data

How the results depend on the processing

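The log2 difference of Arc1 stayed between −1.53 and −0.94 over all alternatives, with its ends without piwi-embKD replicate 1 and replicate 2. That of Arc2 ran from −1.23 to −0.87 with a library left out, and was −1.25 with the smaller pseudocount (0.0995) and −0.41 with the larger (9.95), as a low level on this scale must move. Neither changed sign in any setting run. The count of features that passed was 547 (135 lower), and 86 (15 lower) with no filter on low values, 91 (10 lower) with transcripts unsummed and 213 to 2793 (24 to 1485 lower) with each library left out. The labels do not say that replicate numbers pair the libraries, and the difference between replicates 1 and 2 correlated at r = 0.06 between the groups over 8172 features. With a replicate block 827 features passed (233 lower), and the list counts were 12 for gut, 7 for muscle and 1 each for fat body, germline and blood cells. With no filter, activity-regulated and muscle genes fell to 0 calls, fasting and gut genes to 1 and follicle genes to 3. The stricter filter (4.98) gave 3 gut calls and 1 germline call, and the fit without the trend gave 1 flanking call. With each library left out, calls ran from 1 to 3 for activity-regulated, 2 to 10 for fasting, 0 to 1 for vesicle, 1 to 2 for nerve, 4 to 15 for gut, 0 to 2 for fat body, 0 to 10 for muscle, 3 to 10 for follicle, 0 to 4 for germline, 0 to 2 for blood cell, 0 to 1 for spermatheca and oviduct and 0 to 3 for flanking genes. The causes were not tested. Of 51 other genes followed, many had no call to lose, and 10 lost their call with no filter. Among those that kept it were FASN1, Syt4, Yp1, Yp2 and Yp3. A fit with 1 library in a group assumes that it varies like the other group, and with 2 per group an exact permutation test could not have passed.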
